A study of Mus musculus with 10 samples.

Results

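The interferon-stimulated genes are the genes a cell turns on when interferon reaches it, and 44 of them were followed here in mouse dorsal root ganglia (DRG), where the cell bodies of sensory neurons sit next to the spinal cord. Members were taken by gene symbol from the count table, and all 44 symbols were found among its 40481 gene IDs. Of these, 43 had enough counts to be tested, and Oas3 did not. The ganglia came from C57BL/6 mice, 5 libraries after oxaliplatin at 10 mg/kg (oxaliplatin 1 to 5) and 5 after vehicle (vehicle 1 to 5), with a treatment of 8 weeks. Oxaliplatin is a platinum drug given against colorectal cancer that damages sensory nerves. The sources used here give neither the dosing schedule nor the animals' ages. Each library is RNA of whole ganglia, so a level sums over neurons, glia, vessels and immune cells, and fewer cells of a type cannot be told apart from less RNA per cell. The labels number the libraries but do not say that each is a separate animal, so the spread that a p-value is set against here may be technical.

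Type I interferons bind a receptor on the cell surface, its kinases JAK1 and TYK2 phosphorylate transcription factors, among them STAT2, and these join IRF9 in a complex that enters the nucleus. The complex binds the interferon-stimulated response element in promoters of genes that block viral replication, such as the IFIT, OAS and Mx genes. Interferon gamma works through another element, the gamma-activated site, and is a strong inducer of the guanylate-binding proteins and immunity-related GTPases. Many of these genes have a low level without infection, which interferon receptor signalling is known to keep up.

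Promoters of the members show the element by which the family is known. RefSeq promoter windows (GRCm38.p6, 250 bases before to 50 after the start) were at hand for 33 of the 44 members. The core of the response element, GAAANNGAAA on either strand, lay in the promoters of 20 of these 33 genes (60.6%), against 3.99% of 27025 genes. A longer form that contains the core, GAAANNGAAACT, lay in 13 of the 33 (39.4%), against 0.303% of all genes. For the gamma-activated site, TTCNNNGAA, which reads alike on both strands, the shares were 8 of 33 (24.2%) and 9.55%. A match is a run of letters and not evidence of binding. The 4 windows below belong to the members of highest mean level that hold the core, and the core is in capitals, also where it lies on the other strand and so reads as its reverse complement. Their places are chr7:141010695-141010994 on the minus strand, chr10:128270248-128270547 on the plus strand, chr11:58199306-58199605 on the plus strand and chr19:34640639-34640938 on the plus strand.
Ifitm3: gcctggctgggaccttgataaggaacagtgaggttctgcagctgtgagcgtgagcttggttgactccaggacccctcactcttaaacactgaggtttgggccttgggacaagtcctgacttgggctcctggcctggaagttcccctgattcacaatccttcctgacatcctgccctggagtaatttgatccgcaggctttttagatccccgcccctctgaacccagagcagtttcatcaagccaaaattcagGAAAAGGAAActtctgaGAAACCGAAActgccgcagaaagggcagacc
Stat2: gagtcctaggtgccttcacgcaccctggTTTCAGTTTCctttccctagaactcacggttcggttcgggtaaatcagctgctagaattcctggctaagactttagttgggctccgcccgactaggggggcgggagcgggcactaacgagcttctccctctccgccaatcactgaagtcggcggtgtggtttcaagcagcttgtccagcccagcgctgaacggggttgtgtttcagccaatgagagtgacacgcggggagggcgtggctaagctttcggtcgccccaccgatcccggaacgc
Igtp: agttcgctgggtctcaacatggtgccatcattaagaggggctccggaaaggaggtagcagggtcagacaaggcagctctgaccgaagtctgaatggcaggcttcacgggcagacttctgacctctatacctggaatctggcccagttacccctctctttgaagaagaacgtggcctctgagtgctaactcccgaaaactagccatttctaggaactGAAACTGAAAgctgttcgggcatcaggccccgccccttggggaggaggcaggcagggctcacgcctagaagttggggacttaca
Ifit1: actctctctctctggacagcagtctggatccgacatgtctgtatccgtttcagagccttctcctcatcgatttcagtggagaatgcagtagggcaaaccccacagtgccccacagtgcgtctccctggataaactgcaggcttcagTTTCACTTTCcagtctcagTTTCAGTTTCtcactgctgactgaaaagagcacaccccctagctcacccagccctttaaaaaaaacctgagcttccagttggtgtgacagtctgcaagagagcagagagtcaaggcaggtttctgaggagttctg
Ifit1 carried a pair of cores before its start, on the strand opposite the gene. In Ifitm3 the pair lay after the start. In Isg15, the promoter of which is not printed, 3 cores overlapped in tandem, from position -78 to -57 relative to the start. Of the 31 matches, 25 lay wholly before the start, as the map of matches shows.

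**Figure D1:**
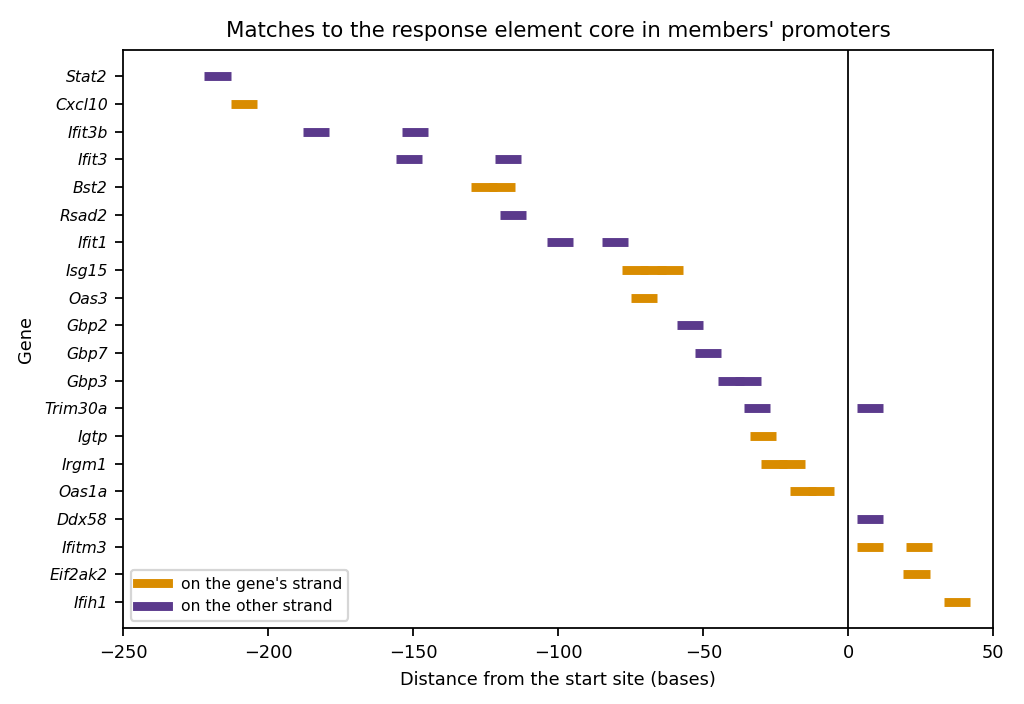
Position of each match to the response element core (horizontal axis, bases from the start site) in the promoters of the 20 members that have one (vertical axis, 1 row a gene). Colour gives the strand, and 25 of 31 matches lie wholly before the start at 0.

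The libraries held 52963470 to 60984426 counts, of which 1.34 to 1.76% were mitochondrial. Markers of sensory neurons summed to 19500 to 23760 CPM (counts scaled to library size and composition) after oxaliplatin and 23690 to 27040 CPM after vehicle, so the tissue markers were present in every library. CPM is not corrected for gene length, so levels are compared between libraries and not between genes. Oxaliplatin 1 stood apart by adipocyte markers (8 genes, 6 tested), which summed to 725 CPM there, 17.3 to 49.5 CPM in the other treated libraries and 8.92 to 36.2 CPM after vehicle. Oxaliplatin 2 stood apart by the interferon-stimulated genes themselves, and each result that rests on it is given with and without it. It was not unusual in its total (58273978 counts), mitochondrial share (1.45%) or scaling factor (1.004).

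Across all 10 libraries no interferon-stimulated gene passed the test after oxaliplatin. Of the 43 tested, 0 were called higher and 0 lower (edgeR quasi-likelihood test, Benjamini-Hochberg adjusted over 18401 genes), where 2.04% of all genes were called in either direction. DESeq2 and limma voom also called 0 members, with 5.22% (of the genes given an adjusted p) and 4.37% of all genes called. DESeq2 gave no adjusted p for some members, among them Ifit1, Ifit3b and Irf7, and so no verdict on these. In the edgeR test 1 member, Ifi27, had an unadjusted p below 0.05. Fold changes lay on both sides of zero, 21 above and 22 below, with a median log2 fold change of -0.0071 over the members and 0.0051 over all genes. They ran from -0.76 for Cxcl10 to 0.61 for Usp18. Groups without overlap were found for 0 of 43 members, against 4.02% of all tested genes in either direction. The members had larger SEs than other genes: their median SE was 0.26 on the log2 scale and that of all genes 0.13. Without oxaliplatin 2 these medians were 0.15 and 0.14.

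The treated libraries differed widely among themselves. Oxaliplatin 2 had the highest level of the 10 libraries for 39 of the 43 tested members (90.7%), whereas 7.42% of all tested genes were highest there. At the other end, oxaliplatin 1 was lowest of all 10 for 24 members and oxaliplatin 5 for 9, while 10.3% and 9.53% of all genes were lowest in them. The level in oxaliplatin 2 over the median of the other 9 libraries had a median of 2.07 over the members and 0.9997 over all genes. For oxaliplatin 1 that ratio was 0.732. The mean log2 CPM of the members was 4.59 in oxaliplatin 2, between 2.85 and 3.47 in the other treated libraries and between 3.35 and 3.78 in the vehicle libraries. So, for this average, oxaliplatin 2 lay above every vehicle library and 3 of the other 4 treated libraries lay below every one. The fourth, oxaliplatin 3, lay among the vehicle libraries.

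**Figure D2:**
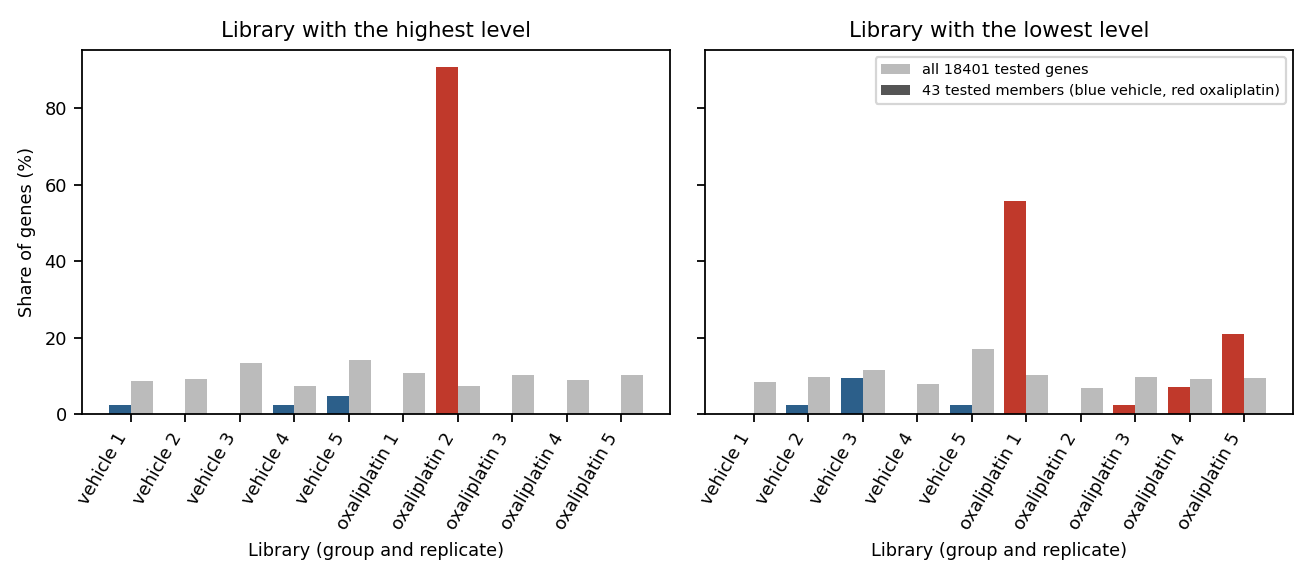
Share of genes (vertical axis, %) with their highest (left) or lowest (right) level in each library (horizontal axis), for the 43 tested members in blue (vehicle) and red (oxaliplatin) and for all 18401 tested genes in grey. Oxaliplatin 2 holds the highest level of 90.7% of the members, and oxaliplatin 1 the lowest of 55.8%.

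Few genes of any kind stood so far out in oxaliplatin 2. Among 13139 tested genes with a mean of at least 2 CPM, 27 (0.205%) were at least 1.5 times higher there than in every other library, and 16 of these were members, of 40 that reached that mean. At a ratio of 2 or more there were 11 genes, 9 of them members. The same count of genes at a ratio of 1.5 was 57 for vehicle 5, 43 for oxaliplatin 1 and 0 to 10 for the remaining libraries. It held 0 members in any library other than oxaliplatin 2. The heat map by role shows that the high column is shared by every role class.

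**Figure D3:**
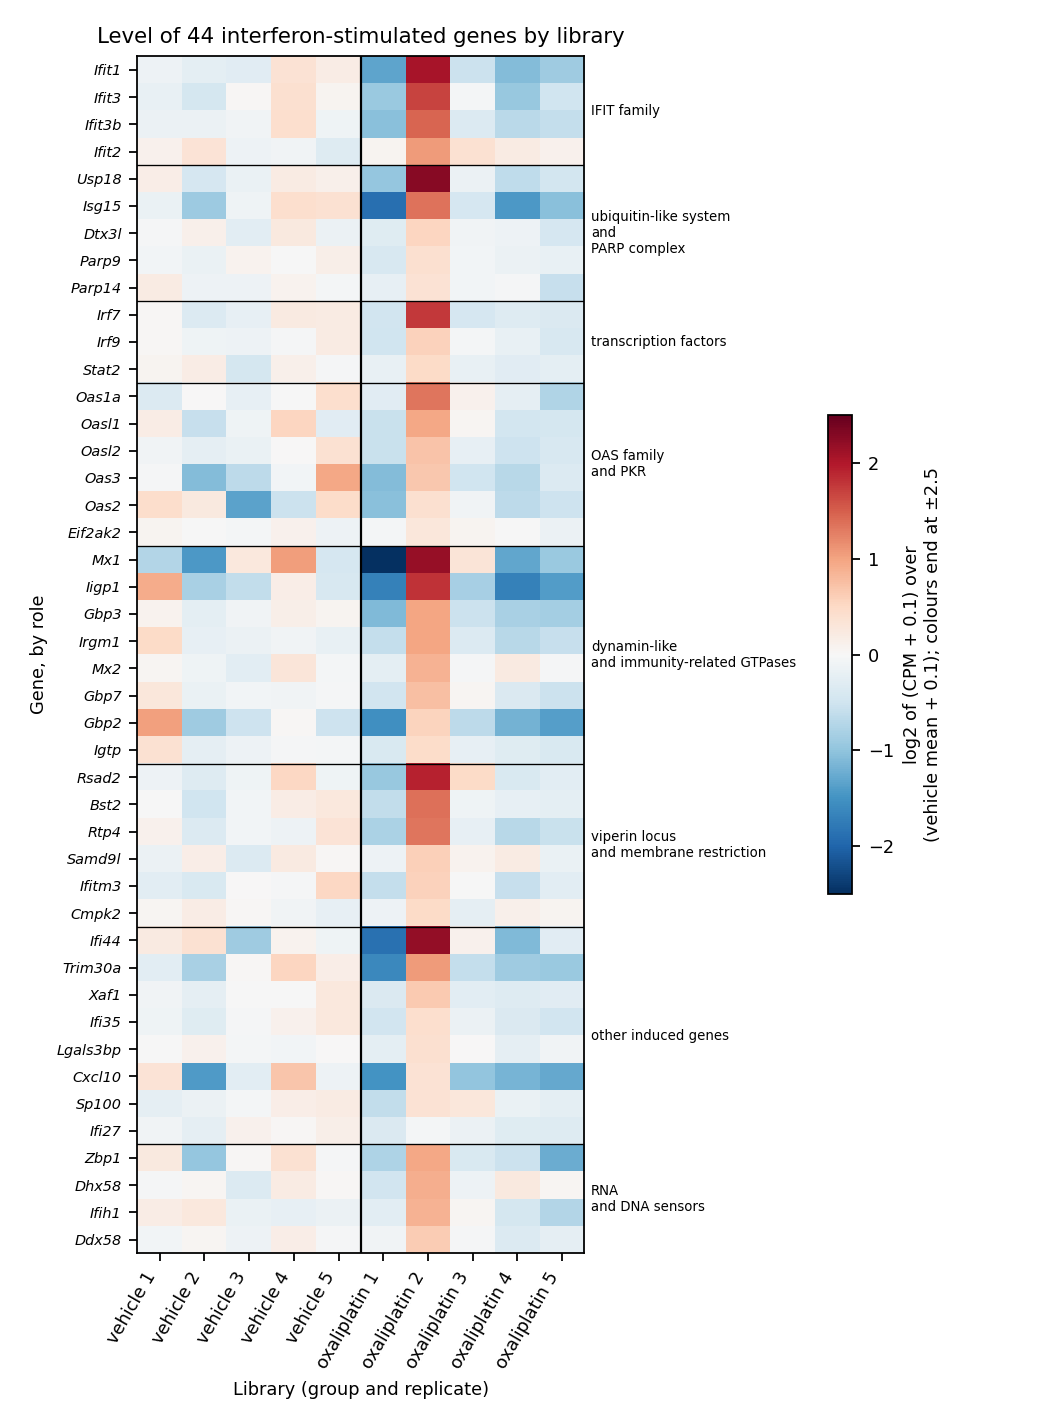
Level of the 44 members (rows, by role) in each of the 10 libraries (columns), as log2 of CPM plus 0.1 over the vehicle mean plus 0.1. Red marks levels above the vehicle mean and blue below it, and the column of oxaliplatin 2 is red for nearly all genes while that of oxaliplatin 1 is mostly blue.

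The IFIT proteins bind viral RNA that lacks the cap marks of the host and keep it from being translated. All 4 IFIT genes were highest in oxaliplatin 2. Ifit1, which recognises such RNA ends and whose promoter pair of cores is printed above, was at 16.2, 168, 27.96, 19.0 and 21.8 CPM in oxaliplatin 1 to 5 and at 37.1, 34.1, 33.05, 51.7 and 46.1 CPM in vehicle 1 to 5. The 4 other treated libraries were below every vehicle library and oxaliplatin 2 was above all of them, at 3.24 times the next highest. The log2 fold change over all libraries was 0.32 ± 0.70 (SE), with an adjusted p of 0.882 (edgeR).

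Ifit3, a partner that stabilises IFIT complexes, had 16.5, 102, 30.3, 16.1 and 22.1 CPM after oxaliplatin and 27.5, 22.96, 31.97, 41.4 and 32.6 CPM after vehicle. Its near-identical copy Ifit3b had 8.53, 48.99, 13.97, 11.03 and 11.7 CPM and 16.1, 15.9, 16.6, 23.6 and 16.4 CPM. The sources used here do not say how reads shared by these copies were counted, and the split between them is uncertain. Both were highest in oxaliplatin 2 and lowest in oxaliplatin 1 or 4, with log2 fold changes of 0.25 ± 0.55 (adjusted p = 0.881) and 0.086 ± 0.49 (adjusted p = 0.9603). Within the vehicle group, vehicle 4 was highest for Ifit1, Ifit3 and Ifit3b.

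Ifit2, an RNA-binding relative, had 26.4, 52.8, 32.9, 29.2 and 27.1 CPM after oxaliplatin and 27.2, 31.9, 23.03, 23.7 and 20.1 CPM after vehicle. The 4 other treated libraries lay in and just above the vehicle range here, unlike those of Ifit1. Ifit2 had the second smallest p of the members, with a log2 fold change of 0.42 ± 0.20 (adjusted p = 0.333).

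In the ubiquitin-like system, Isg15 codes for a small modifier joined to other proteins, and Usp18 for the protease that removes it and also dampens the type I interferon receptor. Usp18 had 6.51, 62.9, 11.7, 8.24 and 9.397 CPM after oxaliplatin and 14.5, 9.56, 11.4, 14.96 and 14.0 CPM after vehicle. Its level in oxaliplatin 2 was 4.20 times that of the next highest library, the largest such ratio among the tested members, and its log2 fold change over all libraries was 0.61 ± 0.67 (adjusted p = 0.7202). Isg15 had 2.34, 23.1, 6.703, 3.23 and 4.32 CPM and 7.94, 4.75, 8.37, 11.99 and 11.8 CPM, with a log2 fold change of -0.18 ± 0.65 (adjusted p = 0.935). Its lowest library was oxaliplatin 1 and its highest oxaliplatin 2.

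The E3 ligase gene Dtx3l, whose product works with PARP9, had a narrower range, 9.04, 16.1, 10.5, 10.1 and 8.29 CPM after oxaliplatin and 10.9, 12.1, 9.28, 13.1 and 10.1 CPM after vehicle, for a log2 fold change of -0.039 ± 0.16 (adjusted p = 0.942). Parp9 and Parp14, which code for enzymes of ADP-ribose transfer, were also highest in oxaliplatin 2, at 8.0 and 7.91 CPM, or 1.19 and 1.11 times the next highest library.

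Of the transcription factors, Irf7, which drives interferon alpha genes and is itself induced by interferon, separated oxaliplatin 2 most clearly. It had 9.31, 44.3, 9.68, 10.3 and 10.2 CPM after oxaliplatin and 13.3, 10.2, 11.2, 15.2 and 15.02 CPM after vehicle. The 4 other treated libraries fell within about 1 CPM of each other, and vehicle 2 lay among them. The log2 fold change was 0.37 ± 0.50 (adjusted p = 0.791).

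Stat2 and Irf9, which code for parts of the complex that binds the response element, differed less between libraries. Stat2 had 53.8, 85.3, 53.9, 50.2 and 51.4 CPM after oxaliplatin and 64.2, 69.5, 45.1, 66.6 and 60.1 CPM after vehicle, where vehicle 3 was lowest of all 10. Irf9 had 18.5, 39.5, 25.4, 23.3 and 19.9 CPM and 27.04, 24.4, 24.2, 25.8 and 30.3 CPM. Both were highest in oxaliplatin 2, at 1.23 and 1.31 times the next library, with log2 fold changes of -0.053 ± 0.16 (adjusted p = 0.919) and -0.058 ± 0.18 (adjusted p = 0.921).

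The OAS enzymes make a short messenger from ATP on double-stranded RNA that starts RNA decay, and Eif2ak2 codes for PKR, the kinase that halts translation on such RNA. Oasl2, an OAS-like gene, had 47.7, 114, 60.9, 48.8 and 52.98 CPM after oxaliplatin and 65.8, 59.8, 62.5, 70.2 and 91.5 CPM after vehicle, with a log2 fold change of -0.11 ± 0.26 (adjusted p = 0.894). Eif2ak2 varied little, at 23.6, 29.8, 25.7, 24.3 and 22.0 CPM and 25.7, 24.2, 23.4, 26.3 and 22.2 CPM, yet oxaliplatin 2 was again the highest, at 1.13 times the next. Its log2 fold change was 0.041 ± 0.090 (adjusted p = 0.882). Oas1a and Oasl1 were highest in oxaliplatin 2 as well, at 8.91 and 6.99 CPM. Oas1a and its close paralogs may share reads. Oas2 lay below 1 CPM in every library and was highest in vehicle 5, and Oas3 had 0 to 17 counts a library.

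Mx proteins are dynamin-like GTPases that trap incoming viruses. Mx1 had 0.0181, 3.88, 1.01, 0.259 and 0.367 CPM after oxaliplatin and 0.434, 0.225, 0.966, 1.73 and 0.559 CPM after vehicle. In oxaliplatin 1 that was a single read, so the log2 fold change of 0.49 ± 1.03 (adjusted p = 0.875) rests on few counts outside oxaliplatin 2. The Mx1 gene of C57BL/6 mice is known to carry a deletion and to make no working protein. Mx2 had 2.05, 4.55, 2.39, 2.88 and 2.403 CPM and 2.53, 2.28, 2.04, 3.04 and 2.39 CPM, with a log2 fold change of 0.22 ± 0.21 (adjusted p = 0.673).

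The guanylate-binding proteins and immunity-related GTPases attack vacuoles that hold parasites or bacteria. Gbp3 had 8.86, 38.1, 13.2, 10.8 and 10.6 CPM after oxaliplatin and 20.5, 16.2, 17.99, 21.1 and 20.02 CPM after vehicle, so oxaliplatin 2 was above and the other 4 treated libraries below all vehicle libraries. Irgm1, a regulator of the other GTPases, had 9.38, 28.3, 11.3, 8.79 and 9.53 CPM and 19.9, 12.4, 12.96, 13.5 and 12.6 CPM, with the same arrangement. Their log2 fold changes were -0.23 ± 0.41 (adjusted p = 0.849) and -0.089 ± 0.35 (adjusted p = 0.939). Iigp1, a GTPase that coats parasite vacuoles, had 1.76, 20.97, 3.27, 1.78 and 2.19 CPM against 11.3, 3.33, 3.83, 6.62 and 4.49 CPM, for a log2 fold change of 0.017 ± 0.82 (adjusted p = 0.996).

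Igtp, another regulator of this family, had 37.1, 66.9, 42.1, 39.1 and 36.97 CPM after oxaliplatin and 62.8, 41.2, 44.2, 47.2 and 46.8 CPM after vehicle, and vehicle 1 came close to oxaliplatin 2. Gbp7 had 17.8, 41.8, 25.8, 19.3 and 17.1 CPM and 30.5, 22.1, 23.9, 23.6 and 24.5 CPM. Gbp2 broke the pattern: it had 6.21, 26.7, 11.6, 7.96 and 6.88 CPM and 37.3, 9.79, 12.6, 18.4 and 12.6 CPM, and its highest library was vehicle 1. None of these 3 passed the test, with log2 fold changes of -0.12 ± 0.18, -0.032 ± 0.24 and -0.61 ± 0.54 (adjusted p = 0.802, 0.9701 and 0.641). Within the vehicle group vehicle 1 was highest for 5 of the 8 GTPase genes (Gbp2, Gbp7, Iigp1, Igtp and Irgm1) and for 6 of the 43 tested members in all. Reads that fit more than 1 Gbp gene add uncertainty to these levels.

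Rsad2 codes for viperin, which makes a chain-ending nucleotide for viral polymerases, and Cmpk2, its neighbour in the genome, for the kinase that supplies the substrate. Rsad2 had 3.76, 27.98, 10.2, 5.64 and 6.06 CPM after oxaliplatin and 6.67, 5.82, 6.79, 10.6 and 6.82 CPM after vehicle, and Cmpk2 had 21.5, 32.5, 19.97, 25.5 and 24.7 CPM and 24.4, 26.5, 23.9, 22.2 and 20.2 CPM. The neighbours differed in range, with oxaliplatin 2 at 2.65 times the next highest library for Rsad2 and at 1.23 times for Cmpk2. Their log2 fold changes were 0.55 ± 0.54 (adjusted p = 0.689) and 0.085 ± 0.12 (adjusted p = 0.792). Ifitm3, whose product blocks virus entry at endosomes, had 66.9, 150.0, 99.5, 67.7 and 84.4 CPM and 84.01, 76.8, 101, 98.2 and 144 CPM. Vehicle 5 nearly reached oxaliplatin 2 there, and the log2 fold change was -0.10 ± 0.26 (adjusted p = 0.899). Bst2, which codes for the tether that holds budding virus at the membrane, and Rtp4 stood at 54.0 and 28.3 CPM in oxaliplatin 2, 2.18 and 2.001 times the next library. Samd9l stood at 7.88 CPM, 1.30 times the next.

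Among the other induced genes, Ifi27, which codes for a small mitochondrial membrane protein, had the smallest p of the members. It had 313, 388, 363, 324 and 320.3 CPM after oxaliplatin and 376, 342, 428, 408 and 444 CPM after vehicle. Oxaliplatin 2 was the highest treated library but lay below 3 vehicle libraries, and the groups overlapped. The log2 fold change was -0.23 ± 0.077, and the adjusted p of 0.149 missed the threshold. Ifi44 had 0.417, 8.56, 1.93, 0.775 and 1.45 CPM and 2.098, 2.36, 0.912, 1.91 and 1.64 CPM, lowest in oxaliplatin 1 and highest in oxaliplatin 2, with a log2 fold change of 0.56 ± 0.76 (adjusted p = 0.792).

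Cxcl10, the chemokine that draws activated T cells, had 1.69, 6.38, 2.44, 2.15 and 1.97 CPM after oxaliplatin and 6.28, 1.797, 4.08, 8.06 and 4.51 CPM after vehicle. Its highest library was vehicle 4, vehicle 2 lay among the low treated libraries, and the log2 fold change was -0.76 ± 0.47 (adjusted p = 0.479). Lgals3bp, a secreted glycoprotein gene, had 95.8, 151, 115, 96.6 and 107 CPM and 112, 122, 110.0, 109 and 114 CPM, for a log2 fold change of -0.0071 ± 0.10 (adjusted p = 0.985). Ifi35, Xaf1, Trim30a and Sp100 were highest in oxaliplatin 2, at 1.05 to 1.46 times the next library. Trim30a has close paralogs that may share its reads.

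The cytosolic sensors detect foreign nucleic acid and are induced by the interferon they trigger. Ddx58, which codes for RIG-I, had 17.6, 29.3, 18.4, 14.8 and 16.1 CPM after oxaliplatin and 17.8, 19.3, 17.1, 21.2 and 18.4 CPM after vehicle. Ifih1, which codes for MDA5, had 4.88, 10.8, 6.104, 4.34 and 3.505 CPM and 6.78, 7.15, 5.24, 5.101 and 5.31 CPM. Oxaliplatin 2 was highest for both, and the log2 fold changes were 0.037 ± 0.15 (adjusted p = 0.943) and 0.0051 ± 0.26 (adjusted p = 0.996). Dhx58, a regulator of these sensors, and Zbp1, a sensor of left-handed nucleic acid, were at 9.11 and 3.74 CPM in oxaliplatin 2, 1.59 and 1.53 times the next library.

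**Figure D4:**
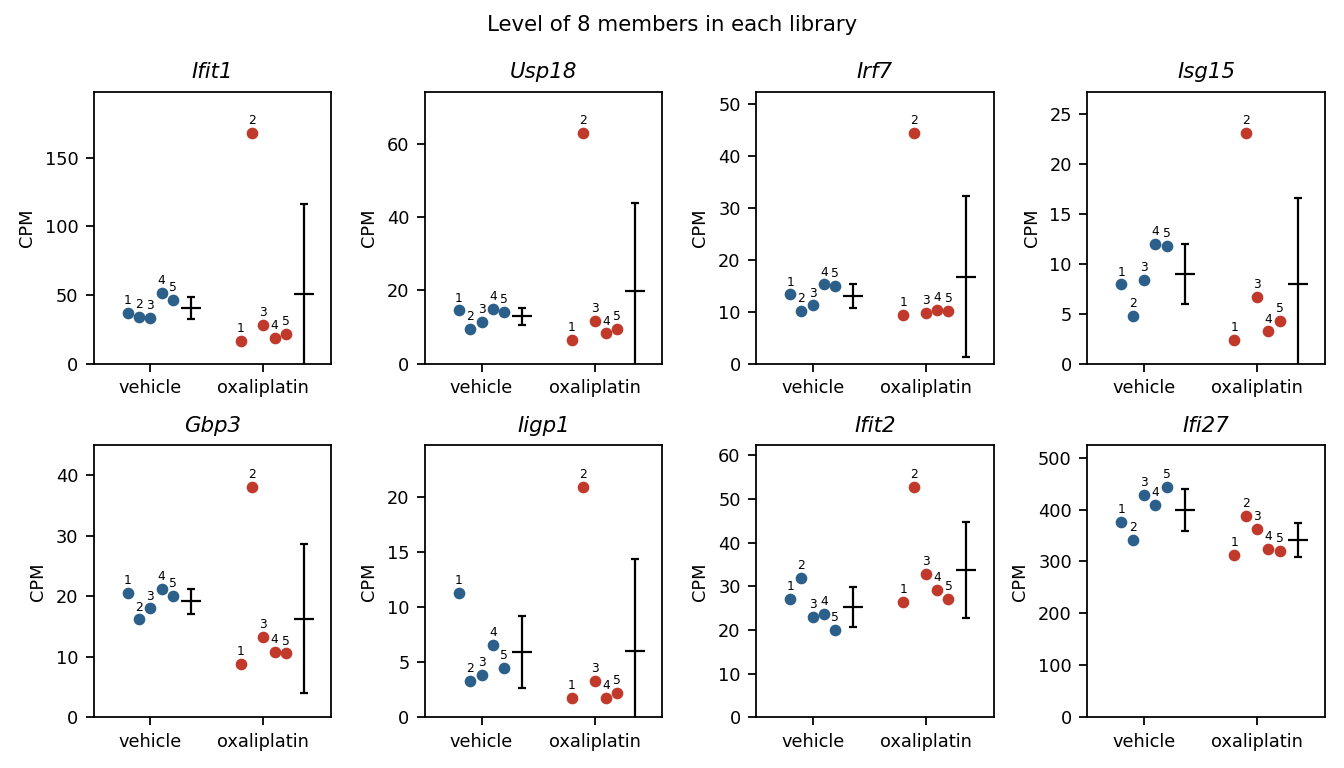
Level (vertical axis, CPM) of 8 members in each vehicle (blue) and oxaliplatin (red) library, with the replicate number beside each point and the mean ± SD (n = 5) as a black bar cut at 0. Oxaliplatin 2 is the highest point for 7 of the 8, and for Ifi27 it lies below 3 vehicle libraries.

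Relative to the vehicle mean, the median level of a role class in oxaliplatin 2 ran from 1.34 for the other induced genes and 1.45 for the ubiquitin-like and PARP class to 2.03 for the viperin and membrane class and 3.01 for the IFIT genes. In oxaliplatin 1 the same medians ran from 0.503 for the IFIT genes to 0.766 for the sensors, so the IFIT class had both the highest median in oxaliplatin 2 and the lowest in oxaliplatin 1. Members with the response element core in their promoter (19 tested) had a median ratio of oxaliplatin 2 to the other libraries of 2.36, with a range of 1.23 to 5.08. The 13 whose window lacked it had 1.62, with a range of 1.36 to 5.22, and the 11 with no promoter entry had 2.15. The ranges overlap almost fully, and these ratios come from 1 library.

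When oxaliplatin 2 was left out, nearly all members had a fold change below 0. This library had been the highest for nearly all members, so leaving it out lowers their treated mean by construction and also narrows their spread. The library was singled out by these same genes, so the p-values and shares below are no independent test. They describe the 4 remaining treated libraries against the 5 vehicle libraries. Of 43 members, 41 then had a log2 fold change below 0 and 2 above, the sign having turned for 19, and the median was -0.33 against 0.0039 over all genes. The test called 4 members lower (9.30%), Gbp3, Ifit1, Ifit3b and Irgm1, where 1.35% of all genes were called lower. It called 0 higher, where 1.84% of all genes were called higher. The median SE of the members was then 0.15, near the 0.14 of all genes.

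Gbp3 had 10.9 ± 1.81 CPM (mean ± SD, n = 4) after oxaliplatin without oxaliplatin 2 and 19.2 ± 2.04 CPM (n = 5) after vehicle. This was 1.76-fold lower, with a log2 fold change of -0.82 ± 0.12 (edgeR adjusted p = 0.00215). For Ifit1 it was -0.93 ± 0.17 (adjusted p = 0.0167), or 1.90-fold lower. Ifit3b had -0.65 ± 0.15 (adjusted p = 0.0284) and Irgm1 -0.55 ± 0.14 (adjusted p = 0.0454). For each of these 4 genes the remaining treated libraries were all below the vehicle libraries. This also held for Iigp1 and Xaf1, so for 6 of 43 members (14.0%), against 3.46% of all genes. The Iigp1 fold change of -1.40 ± 0.37 was the largest of the members and missed the threshold (adjusted p = 0.0748). Ifit2 and Samd9l stayed above 0, at 0.20 ± 0.12 and 0.0064 ± 0.15 (adjusted p = 0.422 and 0.9902).

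How many members were called in the absence of oxaliplatin 2 depended on the tool and on a further library. DESeq2 called 15 of 43 lower, among them all 4 named above, where it called 3.33% of all genes lower. With oxaliplatin 1, the library of high adipocyte markers, left out too, edgeR called 2 lower, Gbp3 (log2 fold change -0.73 ± 0.12, adjusted p = 0.00899) and Ifit1 (-0.82 ± 0.17, adjusted p = 0.0352), where 0.463% of all genes were called lower. Leaving out any library other than oxaliplatin 2 gave 0 members called in either direction. The plot of fold changes with and without the library shows how far each member moved.

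**Figure D5:**
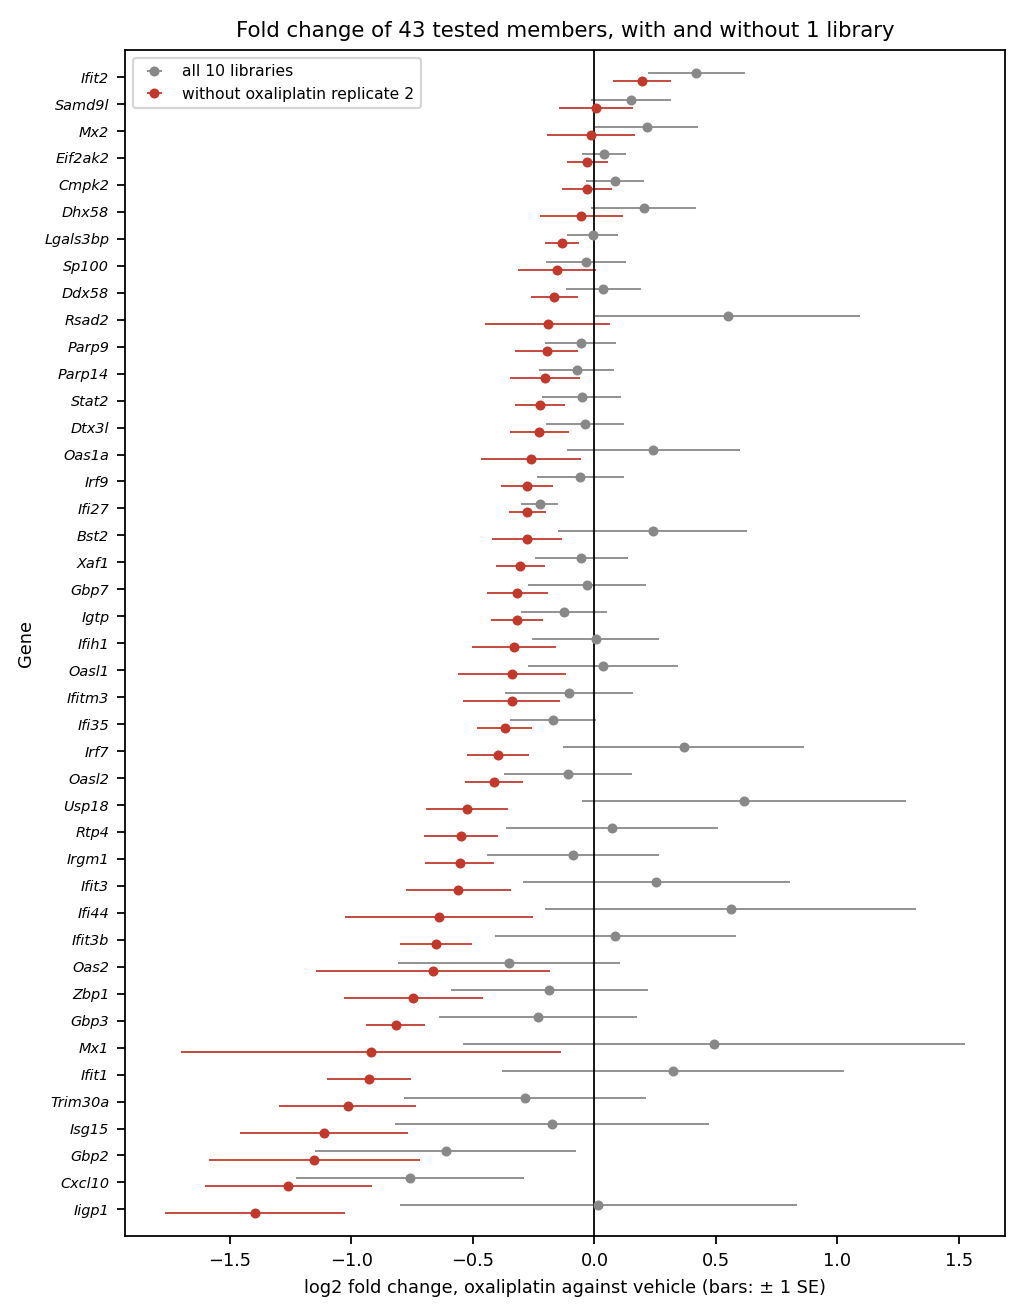
Fold change of the 43 tested members (horizontal axis, log2 of oxaliplatin over vehicle, bars ± 1 SE) with all 10 libraries in grey and without oxaliplatin 2 in red. Without that library 41 of the 43 points lie below 0.

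Around the members, the interferon pathway was read from lists of genes with no member in them. Of 21 interferon genes, 13 had 0 counts in every library and none had enough counts to be tested. Their summed level reached at most 0.17 CPM in any library, and in oxaliplatin 2 it was 0.0342 CPM, from 2 reads of Ifnk. In that library, 3 counts, the limit that a count of 0 allows, come to 0.0513 CPM. The sources used here do not say how reads shared by similar interferon alpha genes were counted, so their counts may be too low. Interferon gamma (Ifng) had 4 reads in vehicle 1, 6 in oxaliplatin 5 and 0 elsewhere.

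Of the 10 receptor and kinase genes, 0 passed the test in either direction. Ifngr1, a chain of the interferon gamma receptor, had the smallest p of these, with a log2 fold change of 0.25 ± 0.078 (adjusted p = 0.12).

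Sensors and adaptors upstream of interferon gave 0 of 14 tested in either direction. Tmem173, which codes for STING, the adaptor for cytosolic DNA, had 7.37, 4.19, 6.75, 6.01 and 5.86 CPM after oxaliplatin and 9.71, 7.69, 7.47, 12.96 and 18.8 CPM after vehicle. Oxaliplatin 2 was its lowest library, and the groups did not overlap, but the log2 fold change of -0.91 ± 0.25 missed the threshold (adjusted p = 0.102). Traf3, a ligase in this signalling, had -0.36 ± 0.11 (adjusted p = 0.0991). Of 12 tested genes that restrain the pathway, 0 passed, and Irf2bp2, a corepressor, came nearest at 0.35 ± 0.094 (adjusted p = 0.0667). DESeq2 and voom called Tmem173 and Traf3 lower and Irf2bp2 higher.

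Of 7 other interferon regulatory factors, 1 fell and 0 rose. Their summed level was highest in oxaliplatin 2, at 119 CPM. It was 93.6 to 103 CPM in the other treated libraries and 99.5 to 110 CPM after vehicle. Irf8, which directs the development of monocytes and dendritic cells, had 0.653, 0.803, 1.47, 0.856 and 1.502 CPM after oxaliplatin and 2.39, 2.19, 2.396, 1.99 and 2.85 CPM after vehicle, with no overlap between the groups. The log2 fold change of -1.16 ± 0.24 passed the test (edgeR adjusted p = 0.0226), and it was -1.07 without oxaliplatin 2 (adjusted p = 0.0344). It was no longer called without oxaliplatin 1, without oxaliplatin 4 or without vehicle 1, where the adjusted p reached 0.0729 at most. Of 12 macrophage markers, Cx3cr1 fell and Mertk rose, and their part in the Irf8 result was not tested.

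Markers of immune cells were read beside the high levels in oxaliplatin 2. The 12 macrophage markers summed to 72.4 CPM there, the lowest treated library, with 72.4 to 95.1 CPM after oxaliplatin and 58.9 to 104 CPM after vehicle. The 10 markers of neutrophils and monocytes (9 tested, 0 called) summed to 9.04 CPM, the lowest of the 10 libraries, against up to 37.7 CPM after oxaliplatin and 9.15 to 40.5 CPM after vehicle, and Ly6g had 0 counts. For 10 T cell markers (5 tested, 0 called) the sum was 4.89 CPM, within 4.89 to 6.31 CPM and 4.404 to 5.78 CPM. Most of it was Lck (2.91 CPM) and Cd4 (1.20 CPM). Cd3g, Cd247 and Cd5 were at 0 in oxaliplatin 2. Cd3e had 20 reads and Cd3d 7, the most of the treated libraries, and Cd2 had 13, Cd8a 4 and Cd8b1 2. Natural killer markers (8, of which 1 was tested) summed to 0.889 CPM, the highest of the 10 libraries, within 0.134 to 0.889 CPM and 0.356 to 0.787 CPM. Nkg7 (24 reads), Klrb1c (14) and Gzma (5) had their highest CPM of the 10 libraries there. Klre1 had 4 reads, Klrk1 3 and Ncr1 2. Prf1 and Eomes were at 0 there, but Eomes was also at 0 in every vehicle library and Prf1 in oxaliplatin 1 and 3.

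The 7 B cell markers (3 tested, 0 called) summed to 65.1 CPM in oxaliplatin 2, 17.5 to 42.5 CPM in the other treated libraries and 59.2 to 92.9 CPM after vehicle. Most of these counts were of Ighm, with 3676 reads in oxaliplatin 2, while Ms4a1 was at 0. The 7 listed markers of plasmacytoid dendritic cells, known as strong producers of type I interferon, summed to 48.2 CPM, within 43.1 to 59.1 CPM and 43.6 to 53.9 CPM. Nearly all of that sum was Tcf4, a gene of many cell types, at 47.4 CPM in oxaliplatin 2, within 41.05 to 55.7 CPM and 37.5 to 50.5 CPM. Siglech, the most specific of them, had 4 reads in oxaliplatin 2, 0 to 25 in the other treated libraries and 16 to 56 after vehicle. Schwann cell markers (7 tested, 0 called) were highest in oxaliplatin 2 at 10970 CPM, with 8040 to 10800 CPM in the other treated libraries and 7389 to 10050 CPM after vehicle. Of the 6 fibroblast markers (summed to 1101 CPM in oxaliplatin 2, within 894 to 1131 CPM and 762 to 988 CPM), the collagen genes Col1a1, Col1a2 and Col3a1 were highest of the 10 libraries in oxaliplatin 2 and lowest in oxaliplatin 1, as many members were. Col1a1 had 105 CPM in oxaliplatin 2, 22.1 CPM in oxaliplatin 1 and at most 74.2 CPM elsewhere. Col1a2 had 180.3, 73.3 and at most 137 CPM, and Col3a1 had 71.5, 20.8 and at most 52.0 CPM. Dcn, Lum and Pdgfra of the same list were not highest in oxaliplatin 2. The part of fibroblasts, Schwann cells, B cells and natural killer cells in the levels of that library was not tested. In the lists of other cells the markers called between the groups were Pecam1, Cdh5 and Vwf of endothelium and Pdgfra of fibroblasts, which rose, Glul of satellite glia, which rose, Fabp7 of satellite glia, which fell, and the neurofilament genes Nefl, Nefm and Nefh, which fell.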

How the data were processed

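The 10 RNA-seq libraries of dorsal root ganglia comprised 5 after oxaliplatin and 5 after vehicle, grouped by title and treatment. The authors deposited raw read counts per Ensembl gene, whole numbers in 40757 rows for 40481 IDs, of which 167 recur with the same counts and were used once. The tools named, per the submitters' processing notes and without their roles, are STAR 2.5.1a, DESeq2 and Partek. The sources used here name no genome build, annotation, counting step or strand, so genes with near-identical copies or overlaps are uncertain.

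The test on the counts was that of edgeR 4.0.16 in R 4.3.3 (filterByExpr, TMM factors, robust quasi-likelihood fit without covariates, Benjamini-Hochberg adjustment over all tested genes, threshold 0.05), a test tried first on simulated data. An SE is the log2 fold change over the root of the F statistic. CPM uses TMM-scaled totals and log2 CPM a prior count of 2. Depth was 52963470 to 60984426 counts. Within each group every pair of libraries differed by more than sampling noise (chi-square over degrees of freedom from 12.75 to 53.5), and the biological coefficient of variation was 19.3%.

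The members, the lists (5 for the pathway, 12 for cell types) and the tests were chosen with earlier results of these data known. Values per library were given for members past the threshold, the 2 of highest mean in each role, the 5 of smallest p, and the 5 standing highest in oxaliplatin 2. Of other genes, those named were pathway genes past the threshold, up to 3 per pathway list of smallest p and up to 10 genes of at least 2 CPM that stood highest in oxaliplatin 2. Ifit3b, Gbp3, Irgm1, Isg15, Iigp1, Mx1 and the cell markers that are named were added after their values were seen. Alternatives were DESeq2 1.42.0 and its size factors, no composition factor, no filter, a filter of 1 CPM in 5 libraries, limma 3.58.1 voom with quality weights, a block for the replicate number, and each library left out. DESeq2 without oxaliplatin 2, and edgeR without oxaliplatin 1 and 2, were chosen after seeing the data. Some results are not reported here.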

Additional observations from a re-analysis of the deposited data

Results flagged for a closer look

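For each tested member and each marker list, the gap between the highest or lowest library of a group and its nearest neighbour was divided by the range of that group, on the log2 CPM scale. With 5 libraries a share above 0.71 marks a library far from the others, which chance gives in about 1 of 20 groups. Of 86 member groups 17 were marked, and of 34 list groups 1. The members share their libraries, so these are not separate events.

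Oxaliplatin 2 stood far above the other treated libraries for 14 members. The share of the range was 0.934 for Irf7, 0.914 for Xaf1 and 0.865 for Stat2. Among the GTPases it was 0.788 for Irgm1, 0.7805 for Igtp, 0.752 for Iigp1 and 0.724 for Gbp3. It was 0.767 for Ifit1, 0.718 for Ifit3b, 0.743 for Bst2, 0.742 for Usp18, 0.723 for Cxcl10, 0.721 for Oasl2 and 0.721 for Rtp4.

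Single vehicle libraries also stood apart. Vehicle 4 was far above the others for Ifit3b (0.901) and Rsad2 (0.735), and vehicle 1 for Irgm1 (0.822). The summed adipocyte markers were far above the other treated libraries in oxaliplatin 1 (0.719).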

How the results depend on the processing

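With all 10 libraries the count of members called stayed at 0 in both directions under both other size factors, both other filters, DESeq2 and voom. DESeq2 gave some members no adjusted p, among them Ifit1, Ifit3b and Irf7. Oxaliplatin 2 was highest for 38 or 39 tested members under each scaling and filter. Leaving out each library in turn gave 0 to 4 members called lower and 0 to 6 whose groups did not overlap, and the nonzero values came without oxaliplatin 2. In that setting 1.35% of all genes were called lower, and 3.46% lay lower without overlap. The median log2 fold change of the members ran from -0.33 without that library to 0.075 without oxaliplatin 5. Without oxaliplatin 2, DESeq2 called 15 members lower, where it called 3.33% of all genes lower. With oxaliplatin 1 left out as well, edgeR called 2 members lower, where 0.463% of all genes were called lower. Whether equal replicate numbers pair the samples was not settled, and the labels do not say so. The correlations of same-numbered libraries were 0.092, -0.038, 0.21, -0.018 and 0.15, and 3 of 5 were highest with their own number. The mean correlations with other numbers were -0.017, 0.0080, -0.054, 0.0058 and -0.043. With the replicate block 382 genes were called higher and 278 lower, against 234 and 142 in the main fit. Under the replicate block 1 member, Ifit2, was called higher (adjusted p = 0.0403) and 0 lower.

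The balance of signs over the 43 tested members depended on the method. In the main fit 21 lay above 0, with voom's weights 6 and under the replicate block 10. The median log2 fold changes were -0.0071, -0.18 and -0.11. Several fold changes that had not passed the test had the other sign under an alternative, and the cause was not tested. With voom's weights they were -0.090 for Ddx58, -0.021 for Eif2ak2, -0.48 for Ifi44, -0.18 for Ifih1, -0.55 for Ifit1, -0.33 for Ifit3, -0.42 for Ifit3b, -1.003 for Iigp1, -0.073 for Irf7, -1.17 for Mx1, -0.064 for Rsad2 and -0.17 for Usp18. Under the replicate block they were -0.0021 for Ddx58, -0.082 for Ifi44, -0.090 for Ifih1, -0.42 for Ifit1, -0.17 for Ifit3, -0.25 for Ifit3b, -0.73 for Iigp1, -0.47 for Mx1 and -0.050 for Usp18. Without a composition factor, which moved the median of all genes to 0.039, Gbp7 was at 0.0011 and Lgals3bp at 0.026. Leaving out each library in turn gave -0.031 to 0.15 for Cmpk2, -0.16 to 0.12 for Ddx58, -0.23 to 0.044 for Dtx3l, -0.029 to 0.085 for Eif2ak2, -0.32 to 0.074 for Gbp7, -0.64 to 0.84 for Ifi44, -0.33 to 0.15 for Ifih1, -0.93 to 0.55 for Ifit1, -0.56 to 0.45 for Ifit3, -0.65 to 0.28 for Ifit3b, -0.34 to 0.058 for Ifitm3, -1.40 to 0.40 for Iigp1, -0.40 to 0.52 for Irf7, -0.28 to 0.039 for Irf9, -0.55 to 0.063 for Irgm1, -1.11 to 0.061 for Isg15, -0.13 to 0.050 for Lgals3bp, -0.92 to 1.02 for Mx1, -0.015 to 0.32 for Mx2, -0.41 to 0.0078 for Oasl2, -0.19 to 0.77 for Rsad2, -0.22 to 0.0020 for Stat2 and -0.53 to 0.84 for Usp18, with the lowest value of each gene without oxaliplatin 2.

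Of the pathway genes outside the members, DESeq2 called 1 higher and 3 lower, voom 2 and 3, the replicate block 1 and 1, no composition factor 1 and 1, and DESeq2 without oxaliplatin 2 called 2 and 5. Leaving out each library in turn gave 0 to 1 in each direction, and leaving out oxaliplatin 1 and 2 gave 0 lower. Depth limits the interferon genes, Oas2, Oas3 and Mx1, which had few or no counts in some or all libraries.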

Other observations

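Outside the 44 members, 11 genes with a mean of at least 2 CPM stood at 1.5 times or more above every other library in oxaliplatin 2. The 10 with the highest ratio are given here. Ifit1bl1, an IFIT relative, was at 17.5 CPM there and at 3.88 to 5.24 CPM in the other 9 libraries. Herc6, which codes for the mouse ligase that attaches ISG15, was at 10.8 CPM against 3.42 to 5.24 CPM. Ddx60, a helicase gene, was at 11.3 CPM against 3.44 to 5.66 CPM. Il18bp, which codes for a soluble trap of interleukin 18, was at 4.29 CPM against 1.703 to 2.37 CPM. H2-T23, which codes for the nonclassical MHC molecule Qa-1, was at 58.9 CPM against 26.3 to 35.8 CPM.

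The others were Trim34a (4.41 CPM in oxaliplatin 2 against 0.944 to 2.46 CPM elsewhere), Phf11d (6.58 CPM against 1.49 to 3.69 CPM), Gm4951 (6.79 CPM against 1.19 to 3.6 CPM), Rasd2 (6.97 CPM against 1.97 to 3.99 CPM), which codes for a small GTP-binding protein, and Eps8l1 (6.22 CPM against 2.602 to 3.86 CPM), which codes for an actin regulator. None of the 10 passed the test between the groups over all libraries, with adjusted p from 0.404 to 0.959 (edgeR). These genes were ranked by their level in 1 library, so their values there are a description.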
